A study of Mus musculus with 4 samples.

Results

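The D cyclins, the G1 kinases they activate, the inhibitors that hold these kinases back and the retinoblastoma gene were examined in cultured primary myoblasts of WT and Tet2 KO mice. The 10 genes were taken by symbol from an expression table of 24445 genes, and all 10 were found in it. They are Ccnd1, Ccnd2 and Ccnd3 (D cyclins), Cdk4 and Cdk6 (kinases), Cdkn1a, Cdkn1b, Cdkn2a and Cdkn2c (inhibitors), and Rb1. The 4 RNA sequencing libraries came from C57BL/6 mice, 2 from WT animals and 2 from animals in which exon 3 of Tet2, an enzyme that oxidises methylated cytosine in DNA, had been deleted in the whole body. Unless stated otherwise, the study used male mice of 8 to 10 weeks. Satellite cells, from which adult muscle regenerates, had been sorted out of hindlimb muscle as CD34+ Integrin a7+ cells that lacked CD45, CD11b, CD31 and Sca1, and were grown for at least 3 days on collagen in a proliferation medium, with no other agent named. The labels do not say how many animals gave each library.

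D cyclins are made in response to growth factors and bind Cdk4 or Cdk6. The active kinase phosphorylates Rb1, which then releases E2F factors so that genes of DNA replication are transcribed. INK4 inhibitors (Cdkn2a, Cdkn2c) bind Cdk4 and Cdk6 directly, and CIP/KIP inhibitors (Cdkn1a, Cdkn1b) act on several cyclin kinase complexes. When myoblasts leave the cell cycle to form myotubes, Cdkn1a and Rb1 are known to be induced while Ccnd1 is lost, and Ccnd3 is retained.

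The values were FPKM, fragment counts divided by transcript length in kilobases and scaled to 1000000 mapped fragments, so that levels of different genes can be compared per length. There was 1 value per gene and group, which combined the libraries of that group, and none per library. No value below therefore has a replicate error, and no difference between the groups was tested. The ratio used throughout is log2((Tet2 KO FPKM + 1) / (WT FPKM + 1)), which understates the change of low genes. A gene was counted as past the threshold when this ratio reached 1.5-fold in either direction. Depth per library was unknown. The median ratio of the 11692 genes with a mean of at least 1 FPKM was -0.0044, and 74.4% of them lay within 0.2 of 0. Tet2 itself had 5.79 FPKM in Tet2 KO against 6.64 FPKM in WT over all of its exons, which does not show the deleted exon.

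The promoters of 3 members are printed first. RefSeq promoter sequence was found for 7 of the 10 members, in 11 windows (Ccnd1, Ccnd2 and Rb1 had no entry). Each line gives the 250 bases before a start, 5′ to 3′ on the strand of the gene, from build GRCm38.p6 and matched without difference to the mm9 position given. Capitals mark E boxes (CANNTG, the sites of MyoD and of other bHLH factors), E2F sites (TTTCCCGC or TTTGGCGC) and p53 half-sites, each searched on both strands. Half-sites were exact matches to RRRCWWGYYY, where R is A or G, W is A or T and Y is C or T. No marked site overlapped another. Cdkn1a is shown because it had the lowest ratio, Cdk4 because it was the most abundant member, and Cdkn2a because its starts give different proteins.
Cdkn1a, upstream start, chr17:29227674-29227923, plus strand: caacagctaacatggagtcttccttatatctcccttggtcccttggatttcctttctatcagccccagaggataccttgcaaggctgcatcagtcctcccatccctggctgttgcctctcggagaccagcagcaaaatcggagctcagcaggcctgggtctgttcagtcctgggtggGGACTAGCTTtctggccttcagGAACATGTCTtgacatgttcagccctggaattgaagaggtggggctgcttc
Cdkn1a, downstream start, chr17:29230464-29230713, plus strand: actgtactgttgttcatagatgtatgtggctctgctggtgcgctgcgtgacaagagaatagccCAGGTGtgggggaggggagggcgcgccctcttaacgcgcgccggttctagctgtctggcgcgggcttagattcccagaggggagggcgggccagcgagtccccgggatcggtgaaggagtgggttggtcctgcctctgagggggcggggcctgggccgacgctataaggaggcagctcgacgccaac
Cdk4, chr10:126500341-126500590, plus strand: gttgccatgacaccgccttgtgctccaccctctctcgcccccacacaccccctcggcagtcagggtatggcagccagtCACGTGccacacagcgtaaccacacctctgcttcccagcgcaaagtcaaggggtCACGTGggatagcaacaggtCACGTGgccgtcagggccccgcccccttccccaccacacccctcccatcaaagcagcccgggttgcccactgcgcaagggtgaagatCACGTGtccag
Cdkn2a, upstream start, chr4:88940524-88940773, minus strand: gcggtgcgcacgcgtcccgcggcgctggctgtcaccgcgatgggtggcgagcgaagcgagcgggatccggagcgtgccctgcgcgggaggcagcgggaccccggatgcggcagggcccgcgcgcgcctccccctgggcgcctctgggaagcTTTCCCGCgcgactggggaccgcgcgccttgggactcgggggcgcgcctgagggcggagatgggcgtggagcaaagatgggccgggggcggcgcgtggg
Cdkn2a, downstream start, chr4:88928097-88928346, minus strand: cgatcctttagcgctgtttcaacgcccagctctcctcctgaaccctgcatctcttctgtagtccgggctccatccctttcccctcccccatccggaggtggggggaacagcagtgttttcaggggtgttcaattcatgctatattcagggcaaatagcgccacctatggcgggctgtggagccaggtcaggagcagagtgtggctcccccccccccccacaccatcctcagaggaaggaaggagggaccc

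The upstream Cdkn1a window held 2 exact p53 half-sites and 2 CpG dinucleotides. At least 1 such half-site was found in 7.13% of all 32851 promoter windows, and 2 or more, the count in this window, in 0.259%. The bases right after the second marked half-site, tgacatgttc, differ from the pattern only at their first letter and were not counted. The downstream Cdkn1a window, 2790 bases further on, held 1 E box, 0 p53 half-sites and 19 CpGs. The Cdk4 window held 4 E boxes, all of the form CACGTG, the core to which Myc proteins bind. At least 1 CACGTG was found in 6.02% of all windows and 4 or more in 0.0213%, the cut of 4 being the count in the Cdk4 window. An E box of any form was found in 66.2%. The Cdk6 window, which is not printed, also held 1 CACGTG. The Cdkn2a starts lie 12427 bases apart. The upstream window, before the first exon of Arf, held 40 CpGs, more than 98.7% of all windows, and 1 E2F site, a motif found in 1.30% of all windows. The downstream window, before the first exon of Ink4a, held 7 CpGs against a median of 6. These matches describe the letters in the windows only. Methylation and factor binding at these starts were not analysed here.

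D cyclins were led by Ccnd1 in both groups, and Ccnd2 was the 1 member past the threshold. Ccnd2, which in WT was the least abundant member, had 7.86 FPKM in Tet2 KO against 4.30 FPKM in WT. Its ratio was 0.74, or 1.83-fold with no pseudocount, a difference of 3.56 FPKM. Ccnd1, the main D cyclin of dividing myoblasts, had 263 FPKM in Tet2 KO against 218 FPKM in WT, with a ratio of 0.27. In FPKM this difference of 45.4 was the largest of the 10 members. Ccnd3, the D cyclin kept in myotubes, had 97.2 and 95.1 FPKM, with a ratio of 0.03. Ccnd1, Ccnd2 and Ccnd3 thus differed in how far they stood from WT. All 3 ratios were above 0, that of Ccnd3 by only 0.03.

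The 3 D cyclins summed to 368 FPKM in Tet2 KO against 317 FPKM in WT, and Ccnd1 contributed 45.4 of the 51.1 FPKM by which they differed. Ccnd1 held 71.5% of the sum in Tet2 KO and 68.6% in WT. The share of Ccnd3 was 26.4% in Tet2 KO and 30.0% in WT, and that of Ccnd2 was 2.14% and 1.36%. Ccnd2 was therefore a small part of the D cyclin transcripts in both groups, although it had the highest ratio of the members.

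Both G1 kinases were on the higher side in Tet2 KO but below the threshold. Cdk4 was the most abundant member, with 293 FPKM in Tet2 KO against 261 FPKM in WT and a ratio of 0.17. Cdk6 had 45.5 FPKM in Tet2 KO against 35.0 FPKM in WT, with a ratio of 0.37. Transcripts of Cdk4 outnumbered those of Cdk6 by 6.43-fold in Tet2 KO and by 7.45-fold in WT. Summed, the kinases had 338 and 296 FPKM.

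Among the inhibitors, Cdkn1a stood apart from the others. Cdkn1a, which encodes p21, had 36.2 FPKM in Tet2 KO against 53.7 FPKM in WT. Its ratio was -0.56, which lies just inside the threshold of 0.58 on the log2 scale. The other CIP/KIP inhibitor, Cdkn1b (p27), had 20.6 FPKM in Tet2 KO against 22.5 FPKM in WT, with a ratio of -0.12. Cdkn2a had 25.7 and 27.5 FPKM, with a ratio of -0.10. This value cannot separate Ink4a (p16), which inhibits Cdk4 and Cdk6, from Arf (p19), which acts on the p53 pathway, since the gene is 1 entry in the table. Cdkn2c (p18) had 23.6 and 24.2 FPKM, with a ratio of -0.03. All 4 inhibitors were on the lower side in Tet2 KO, and 3 of them by less than 0.13 on the log2 scale.

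The 4 inhibitors summed to 106 FPKM in Tet2 KO against 128 FPKM in WT, a difference of 21.9 FPKM to which Cdkn1a contributed 17.5 FPKM. Cdkn1a made up 34.1% of the sum in Tet2 KO and 42.0% in WT. There were 3.47 D cyclin transcripts per inhibitor transcript in Tet2 KO and 2.48 in WT. With Cdkn1a left out, the ratios were 5.26 and 4.27. The ratio of Ccnd1 to Cdkn1a, the most abundant D cyclin and the most abundant inhibitor, was 7.27 in Tet2 KO and 4.05 in WT.

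**Figure D1:**
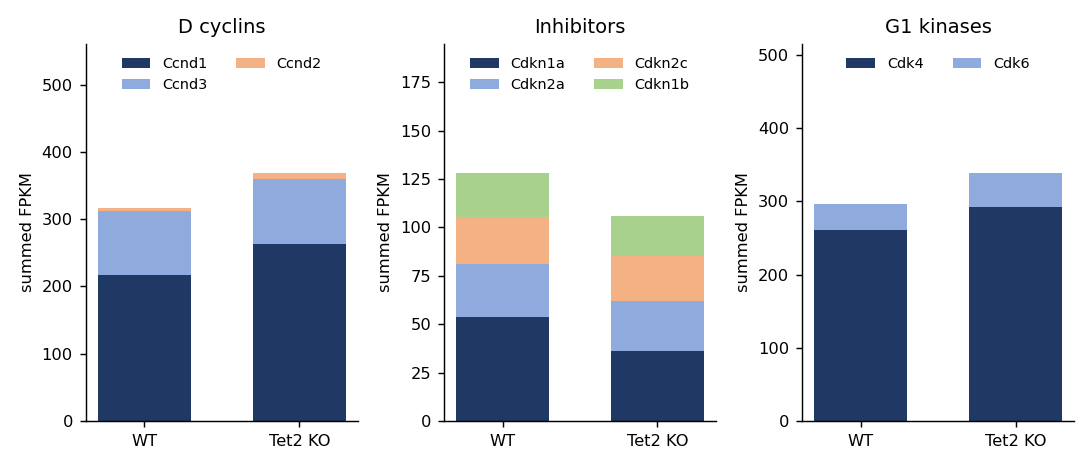
Summed FPKM (vertical axes, from 0) of the D cyclins, the inhibitors and the G1 kinases in WT and Tet2 KO, with 1 value per group and no error bars; colours mark the genes. The D cyclin bar is taller in Tet2 KO (368 against 317 FPKM) and the inhibitor bar is shorter (106 against 128 FPKM), mostly through Cdkn1a.

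Rb1, the substrate of these kinases, had 7.67 FPKM in Tet2 KO against 10.4 FPKM in WT, with a ratio of -0.39. The related pocket proteins are Rbl1 (p107) and Rbl2 (p130). Rbl1 had 22.3 and 21.1 FPKM, and Rbl2 had 5.11 and 4.59 FPKM. Rb1 supplied 21.8% of the summed pocket protein transcripts in Tet2 KO and 28.8% in WT, while the sum was 35.1 and 36.0 FPKM.

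**Figure D2:**
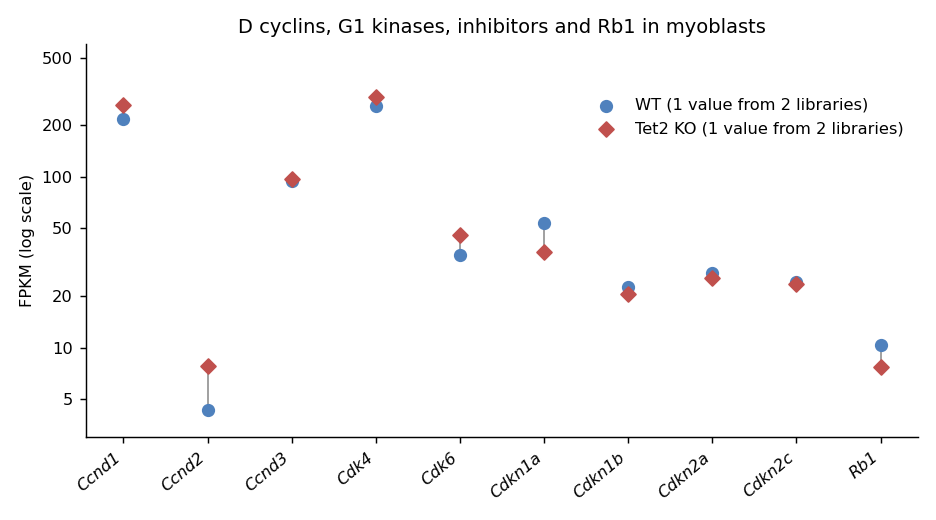
FPKM on a log scale (vertical axis) of the 10 members in WT (circles) and Tet2 KO (diamonds), 1 value per group and gene, joined by a line. The symbols lie farthest apart for Ccnd2 (4.30 and 7.86 FPKM), Cdkn1a (53.7 and 36.2 FPKM) and Rb1 (10.4 and 7.67 FPKM).

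Ordered by level in WT, the members ran Cdk4, Ccnd1, Ccnd3, Cdkn1a, Cdk6, Cdkn2a, Cdkn2c, Cdkn1b, Rb1 and Ccnd2. In Tet2 KO the order changed at 2 places. Cdk6 stood 1.26-fold above Cdkn1a in Tet2 KO, whereas Cdkn1a stood 1.53-fold above Cdk6 in WT. Ccnd2 and Rb1 were nearly level in Tet2 KO, 1.02-fold apart, whereas Rb1 stood 2.41-fold above Ccnd2 in WT. Cdkn2a, Cdkn2c and Cdkn1b followed each other at distances of 1.07- to 1.14-fold in both groups. With no spread at hand, neighbours this close cannot be ordered.

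Of the 10 members, 1 was at least 1.5-fold higher and 0 were at least 1.5-fold lower in Tet2 KO. Over the 11692 genes with a mean of at least 1 FPKM, 3.72% were at least 1.5-fold higher and 2.89% at least 1.5-fold lower. In the range of levels that the members span, from 6.08 to 277 FPKM, 4.12% of 8084 genes were past 1.5-fold in either direction. Low genes passed it more often. Among the 3664 genes within 2-fold of the mean level of Ccnd2 the share was 8.16%, and among the 3090 genes within 2-fold of that of Cdkn1a it was 3.40%. At a lower threshold, a ratio of at least 5 to 4, 2 members were higher (Ccnd2 and Cdk6) against 7.04% of all genes, and 2 were lower (Cdkn1a and Rb1) against 7.03%. The median ratio of the 10 members was -0.0012, with 5 above and 5 below 0.

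**Figure D3:**
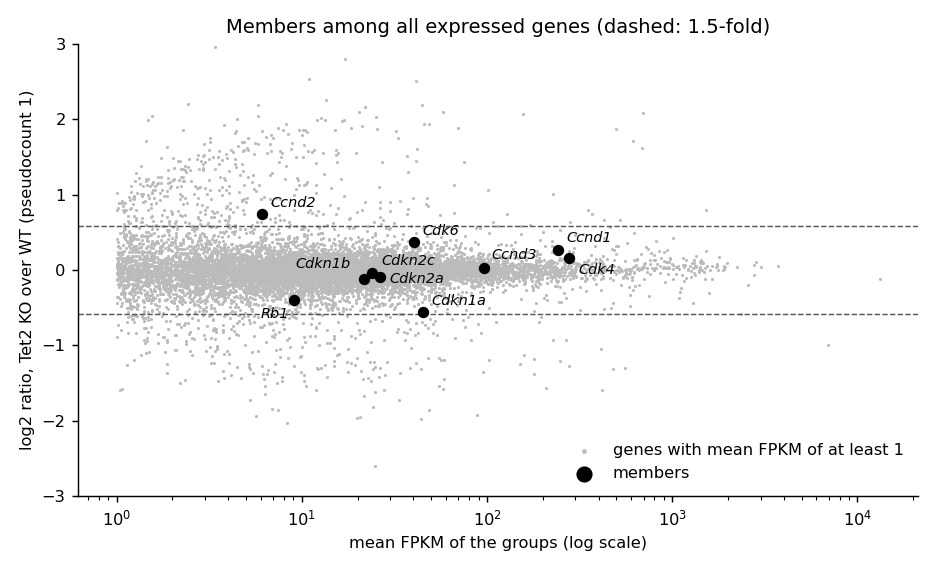
Ratio of Tet2 KO over WT on the log2 scale with a pseudocount of 1 (vertical axis) against the mean FPKM of the groups on a log scale (horizontal axis) for genes with a mean of at least 1 FPKM (grey) and the 10 members (black); dashed lines mark 1.5-fold, and 11 genes lie outside the axis limits of 3 and -3. Only Ccnd2 among the members lies beyond a dashed line, and Cdkn1a lies just inside the lower one.

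The genes nearest to Ccnd2 in level in both groups were 3300005D01Rik (7.91 FPKM in Tet2 KO against 4.51 FPKM in WT), Metrnl (7.60 and 4.51 FPKM) and Loxl1 (8.18 and 4.66 FPKM). Nearness was the distance between the log2(FPKM + 1) values, at most 0.11, over 2 points for each gene.

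Other genes of the G1 pathway were examined as lists. None of the 7 other G1 cyclins, kinases and activators was past 1.5-fold, with a median of 0.13. They ran from -0.23 for Mnat1, a subunit of the kinase that activates cyclin kinases, to 0.22 for Cdc25a, a phosphatase that does the same. Ccne1 and Ccne2, the E cyclins that follow the D cyclins in late G1, had ratios of 0.13 and 0.20. The 3 other inhibitors, Cdkn1c, Cdkn2b and Cdkn2d, had a median of -0.14 and none past 1.5-fold. They ran from -0.16 for Cdkn1c to -0.01 for Cdkn2b, the neighbour of Cdkn2a (24.5 and 24.6 FPKM).

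The 12 pocket proteins and E2F factors had a median of 0.09 and none past 1.5-fold, from -0.16 for Tfdp2, a partner of E2F factors, to 0.18 for E2f2. Of the 19 E2F target genes, 0 were past 1.5-fold in either direction, and 18 had a ratio above 0. The median of the 19 was 0.13, from -0.02 for Rrm1 to 0.25 for Rrm2, both subunits of the enzyme that makes deoxynucleotides. Over all genes with a mean of at least 1 FPKM, the median was -0.0044 and 74.4% lay within 0.2 of 0. The largest difference among the 19, that of Rrm2, was 248 FPKM in Tet2 KO against 208 FPKM in WT. The list of DREAM complex genes plus Mybl2, 6 genes together, had a median of 0.01 and none past 1.5-fold, from -0.09 for Lin37 to 0.09 for Lin52.

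Genes that control the amount of cyclins and inhibitors were also below the threshold. Of 11 genes of protein degradation 0 were past 1.5-fold, with a median of -0.09 that was 0.0007 over those with a mean of at least 5 FPKM. Fbxw7, which targets cyclin E, was lowest (-0.39), and Skp2, which targets Cdkn1b, was highest (0.15). Of 14 polycomb and T-box genes, which repress Cdkn2a, 12 had a mean of at least 1 FPKM and 0 of these were past 1.5-fold. Their median was -0.04, and it turned to 0.04 over those with a mean of at least 5 FPKM. They ran from -0.18 for Rnf2 to 0.27 for Ezh2.

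The list of p53 and its target genes, to which Cdkn1a also belongs, held 18 others, of which 17 had a mean of at least 1 FPKM. Among them 1 was past 1.5-fold, Gadd45a, a gene induced by DNA damage, with 36.5 FPKM in Tet2 KO against 65.8 FPKM in WT and a ratio of -0.83. The next lowest was Trp53inp1 (-0.45), and the highest was Pmaip1 (0.14). Trp53 and Mdm2, the factor and its main antagonist, had ratios of 0.05 and 0.00. The median was -0.10, and over the genes with a mean of at least 5 FPKM it was 3.03e-05.

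**Figure D4:**
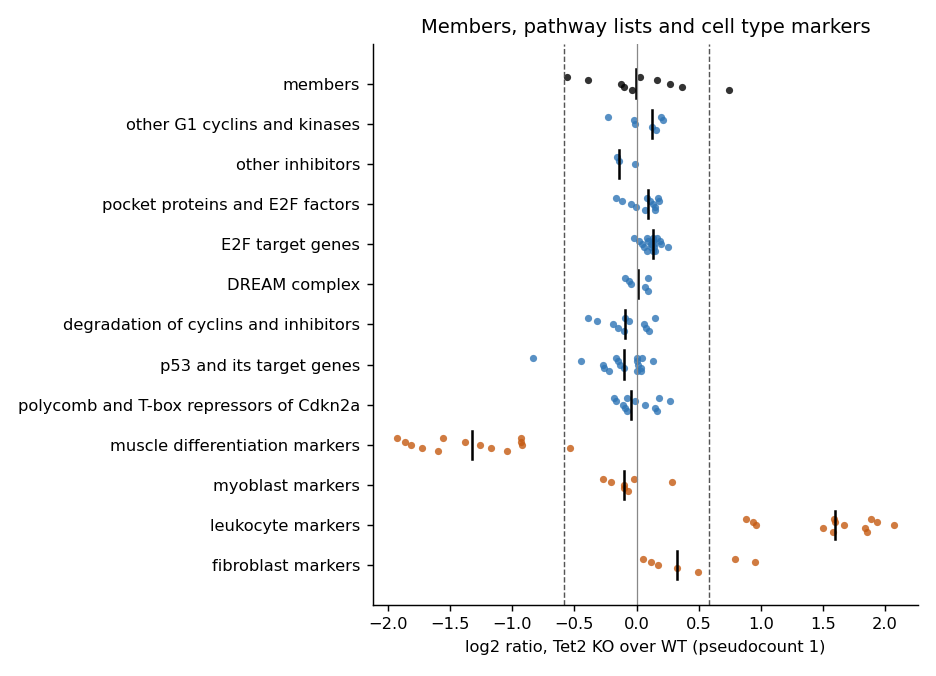
Ratio of Tet2 KO over WT on the log2 scale with a pseudocount of 1 (horizontal axis) for each gene with a mean of at least 1 FPKM (points) in the members (black), 8 pathway lists (blue) and 4 marker lists (orange); vertical bars are medians and dashed lines mark 1.5-fold. In the pathway lists only Gadd45a lies beyond a dashed line, whereas 13 of 14 muscle differentiation markers lie to the left and 13 of 13 leukocyte markers to the right.

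Markers of cell state and of other cell types were set beside these values. The 7 myoblast markers, which include Myod1 (313 and 336 FPKM) and Pax7 (a ratio of -0.02), had a median of -0.10 and none past 1.5-fold, so that the labelled cell type was present in both groups. Of 14 muscle differentiation markers, 13 were at least 1.5-fold lower in Tet2 KO, and their summed level was 1269 FPKM in Tet2 KO against 2931 FPKM in WT. Tnnt1 was the exception (-0.53), close to Cdkn1a (-0.56). The median of this list was -1.32, against -0.56 for Cdkn1a and -0.39 for Rb1. The part of this difference in the values of Cdkn1a and Rb1 was not tested. In a bulk sample, fewer cells of a type and less RNA per cell cannot be told apart.

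All 13 leukocyte markers in the table passed 1.5-fold on the higher side, with a median of 1.60, although the sort had removed cells with CD45 and CD11b. Their summed level was 487 FPKM in Tet2 KO against 124 FPKM in WT. Ptprc, which encodes CD45, had 5.67 and 1.36 FPKM, Itgam (CD11b) had 10.1 and 2.09 FPKM, and none of the 13 was at 0. Of 7 fibroblast markers with a mean of at least 1 FPKM, 7 had a ratio above 0, with a median of 0.32. Col1a2 and Dcn were at least 1.5-fold higher, and 3 of the list were so with no pseudocount or as TPM (FPKM rescaled to the same sum in each group). The summed level of the 8 listed genes was 489 and 447 FPKM, most of it from Ly6a, which encodes Sca1, a marker the sort selected against (288 and 278 FPKM), and Col3a1 (171 and 152 FPKM). Of 5 endothelial markers, 4 had a mean under 1 FPKM, and their sum was 3.33 and 3.80 FPKM. The part of leukocyte and fibroblast transcripts in the value of Ccnd2, which differed by 3.56 FPKM, was not tested.

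In mm9, the build of the table, Ccnd2 lies on the minus strand of chromosome 6 from 127075797 to 127101066, per GENCODE vM1. Its longest annotated coding transcript has 5 exons and 5701 bases, and the locus of the table, 86711 bases, was longer than the annotated gene, 25270 bases. The same locus was given for the overlapping gene 9330179D12Rik, so it is not the extent of Ccnd2 alone. Cdkn1a lies on the plus strand of chromosome 17 from 29227924 to 29237667, with a longest coding transcript of 3 exons and 1910 bases. Cdk6 (chromosome 5, 3343893 to 3523218) and Rb1 (chromosome 14, 73583480 to 73725629) lie on the plus and the minus strand. Annotated genes of the table overlapped 5 members, and the library kit does not mark strand. These were Ccnd1 with Oraov1 (818 bases), Ccnd2 with 9330179D12Rik (1660 bases), Ccnd3 with Bysl (353 bases), Cdk4 with Tspan31 (604 bases), and Rb1 with Rcbtb2, Mir687 and Lpar6. The gene over Ccnd2 was at or under 0.0386 FPKM in both groups, far below Ccnd2. Rcbtb2, which overlapped Rb1 by 24171 bases from the other strand, had 33.6 FPKM in Tet2 KO against 35.9 FPKM in WT. Lpar6, which lies within Rb1 over 2468 bases on the other strand, had 11.3 FPKM in Tet2 KO against 10.9 FPKM in WT. Rcbtb2 and Lpar6 both stood above Rb1 itself. How much of these overlaps lies in exons of Rb1 was not examined, so that the value of Rb1 is uncertain. Of the longest Ccnd3 transcript, 86.7% was matched at 95.5% identity on chromosome 4, from 138900315 to 138902142, where GENCODE vM1 annotates the pseudogene Ccnd3-ps on the minus strand (138901215 to 138902095), so that the value of Ccnd3 is uncertain too. For Ccnd1, Ccnd2, Rb1 and the 4 inhibitors no such copy was found. For Cdk4 and Cdk6 only short stretches matched elsewhere, covering 5.26% and 9.05% of the transcript. The longest had 108 bases for Cdk4, in 3 alignments, and 175 bases for Cdk6, in 4275 alignments.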

How the data were processed

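RNA of 4 libraries (2 WT, 2 Tet2 KO) was sequenced by the authors with a TruSeq RNA kit v2. Per the study's methods and the submitters' processing notes, reads were trimmed of adapters, filtered for quality, aligned to mm9 with TopHat2 2.0.13 and quantified with Cuffdiff 2.2.1. The gene annotation is not given in the sources used here, nor is how libraries were combined. The deposited values are FPKM, 1 per gene and group, scaled between groups by the authors' program. The table also holds the authors' own comparison (a log2 fold change, a test statistic, p-values and q-values), which was not used. From the FPKM, log2 ratios with a pseudocount of 1, sums and shares were computed. Genes with a mean under 1 FPKM were left out of counts and medians, and no member was. With 1 value per group no model across genes was fitted and no test was made. The leukocyte marker Emr1 was not found in the table under this symbol.

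The members and lists were chosen with earlier results of these data known. Genes named were the members, the extremes of each pathway list and any list gene past 1.5-fold, and the 3 genes nearest to the member with the largest ratio; other genes and all markers were named after their values were seen. Gene structure came from GENCODE vM1 (mm9). Copies of at least 100 bases and 95% identity were searched with BLAST+ 2.17.0. The call rule was tested on simulated data. Python 3.11.15, numpy 2.4.6, pandas 2.3.3 and matplotlib 3.10.9 were used.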

Additional observations from a re-analysis of the deposited data

How the results depend on the processing

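No paired analysis was possible because each group has a single deposited value; leaving out a library was not possible for the same reason.

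The ratios of the 10 members kept their sign with a pseudocount of 0.1, with no pseudocount, as TPM (FPKM rescaled to a sum of 1000000) and with the median of all genes set to 0. The largest shift was 0.13 on the log2 scale, for Ccnd2 with no pseudocount (0.87). Under these 4 settings, with no filter on low values and with a mean of at least 5 FPKM, 1 member was past 1.5-fold higher and 0 were past 1.5-fold lower. The fold threshold changed these counts: 2 were higher and 2 lower at a ratio of at least 5 to 4, and 0 were higher and 0 lower at 2-fold. The median of the members, close to 0, was 0.0021 as TPM and 0.0032 with the median of all genes set to 0, against -0.0012. The lower ratio of the 4 member inhibitors to the D cyclins in Tet2 KO (-0.49 on the log2 scale) was -0.54 without Cdkn2a. With a mean of at least 5 FPKM, the medians of the lists of degradation (0.0007, against -0.09), p53 (3.03e-05, against -0.10) and polycomb and T-box genes (0.04, against -0.04) lost their negative sign, and that of the other inhibitors was -0.08, against -0.14. The other pathway medians kept their sign with no pseudocount, a mean of at least 5 FPKM or TPM. Among the marker lists, the leukocyte median was 2.004 with no pseudocount, 1.76 at a mean of at least 5 FPKM and 1.78 as TPM, and the fibroblast median was 0.48 at a mean of at least 5 FPKM.

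Depth per library was unknown, and no counting error is given for any member.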
